A study of Mus musculus with 2 samples.

Results

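CD4 T cells, the helper and regulatory lymphocytes of the gut wall, were chosen by their measured UMI counts (unique molecular identifiers, each the tag of 1 captured transcript) from single-cell RNA libraries of mouse duodenum and of polyps. A member carried at least 1 UMI of the CD3 genes Cd3d, Cd3e or Cd3g and at least 1 of Cd4. It carried none of Cd8a, Cd8b1, Trdc, the complement genes C1qa, C1qb and C1qc, Il17a or Il22. Of 11712 barcodes kept after filters on depth, detected genes and mitochondrial share, 118 were members, 37 of 3252 in the normal library and 81 of 8460 in the polyp library. In the normal library, unaffected duodenal tissue came from 3 animals of the genotype Lkb1+/+;Myh11-Cre/ERT2. The polyp library was made from 3 animals of the genotype Lkb1flox/+;Myh11-Cre/ERT2. Both groups therefore carried the Cre, which the Myh11 promoter of smooth muscle drives and which is not a T cell promoter. The 3 mice of a group were pooled with no label that separates them, so each group is 1 library, no test between groups could be made, and tissue site (polyp or normal wall) and genotype cannot be told apart. Intervals given below are exact 95% intervals for counting error alone and leave out the spread between mice. Those of levels and ratios, which sum UMIs over barcodes, leave out the spread between barcodes too.

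CD4 T cells recognise antigen on MHC class II molecules through an alpha-beta receptor, with CD28 and ICOS as costimulatory receptors and CTLA4 as a brake on CD28 signalling. Regulatory cells, marked by the transcription factor Foxp3, restrain other T cells and in the intestine keep responses to food and microbes in check. Normal small intestine also holds T cells within the epithelium, mostly CD8 and gamma-delta cells rich in granzymes, and some CD4 cells take on that killer programme. Cd4 lies at chr6:124864692-124888221 (minus strand) and Foxp3 at chrX:7573644-7595245 (plus strand) of mm10.

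The depth was low for most members. The 37 normal members held 200773 UMIs in all, with a lowest of 982, a median of 3098 and a highest of 39388 per barcode. The 81 polyp members held 249007 UMIs, with a lowest of 1174, a median of 2318 and a highest of 11867. The choice rested on few molecules: 31 normal and 68 polyp members had a single Cd4 UMI, and 6 and 13 had 2 or more. Just outside the rule, 282 normal and 607 polyp CD3-positive barcodes had no UMI of Cd4, Cd8a, Cd8b1, Trdc or C1q and could not be assigned. A Cd4 UMI was found in 2 of 1017 normal and 5 of 4293 polyp epithelial barcodes, which should lack the gene. It was found in 7 of 700 normal and 0 of 67 polyp CD3-positive barcodes with a Cd8 UMI, and the interval of that 0 reaches 5.36%.

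The label was checked against genes the rule did not use. Trac, Trbc1 or Trbc2, the constant parts of the alpha-beta receptor, had a UMI in 34 of 37 normal members (91.9%) and 72 of 81 polyp members (88.9%), against 6.59% and 2.12% of epithelial barcodes. Cd28 was found in 20 normal and 48 polyp members, Ctla4 in 23 and 34, Icos in 15 and 40, and Foxp3 in 1 and 10. Cd4, the remaining marker of the label, is in every member by the rule. Lists of other cells were read in full. Of 10 genes of CD8 or gamma-delta intraepithelial T cells, 6 had a UMI in each library. They gave 847 UMIs in 27 normal members and 23 UMIs in 14 polyp members. Cd8a, Cd8b1 and Trdc were at 0 by the rule, and Fcer1g was at 0 too. Of 7 B cell genes, 3 had a UMI in normal members (28 UMIs in 2 barcodes) and 2 in polyp members (15 UMIs in 2), with Ms4a1 and Pax5 at 0. Of 9 natural killer and innate lymphoid genes, 2 had a UMI in normal members (3 UMIs) and 4 in polyp members (63 UMIs in 21 barcodes), with Ncr1 and Klrb1c at 0. Areg, a gene of that list that T cells can also make, gave 55 of the 63 polyp UMIs. Of 9 dendritic cell genes, 4 had a UMI in each library (130 UMIs in 8 normal and 60 in 25 polyp barcodes), with Itgax and Flt3 at 0. Macrophage genes gave 4 and 7 UMIs, from 2 of 8 genes in each, with Csf1r and Adgre1 at 0. All 7 plasma cell genes were present, with 13614 UMIs in 36 normal and 10972 in 75 polyp members, as were all 7 epithelial genes, with 298 and 353 UMIs. Their part in the results was not tested. Of 44 barcode sequences shared by the libraries, 0 belonged to a member.

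Some members stood apart. 3 normal and 4 polyp members carried 20 or more UMIs of an epithelial or fibroblast list or of the plasma cell genes Jchain and Mzb1. The 3 normal barcodes held 36.3% of all UMIs of the normal members, and the 4 polyp barcodes held 14.4%; 3 of these 4 were Foxp3-positive. Values are therefore also given for the 34 and 77 members without those 7 barcodes. Without those barcodes B cell genes stood at 0 UMIs in both libraries, plasma cell genes at 192 in normal and 288 in polyp members, dendritic genes at 7 and 39, innate lymphoid genes at 3 and 46 and epithelial genes at 46 and 195. Transcripts of epithelial and exocrine cells also differed between libraries. Gastric mucous genes reached 31654 CPM (UMIs of a gene or list over all UMIs of the group, scaled to a common total) in polyp members, with 45 to 976 UMIs in each of the 81, and 588 in normal members. Pancreatic acinar genes reached 5026 CPM in normal members, with UMIs in all 37, and 426 in polyp members. Their part in the ratios below was not tested.

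CD4 T cells made up 1.14% (0.802 to 1.56%) of kept normal barcodes and 0.957% (0.761 to 1.19%) of kept polyp barcodes, shares whose intervals overlap. Among CD3-positive barcodes they made up 3.56% (2.52 to 4.88%) of 1039 in normal tissue and 9.54% (7.65 to 11.7%) of 849 in polyps. CD8 alpha-beta T cells showed the opposite order, 52.9% in normal tissue and 7.54% in polyps, as did gamma-delta T cells with 14.1% and 5.77%. CD4 cells were 37 of 734 assigned T cells in normal tissue (5.04%) and 81 of 194 in polyps (41.8%). The unassigned share also differed, 27.1% in normal tissue and 71.5% in polyps, so the true CD4 share could not be measured. With 1 library a group, the spread of these shares between mice was not measured.

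**Figure D1:**
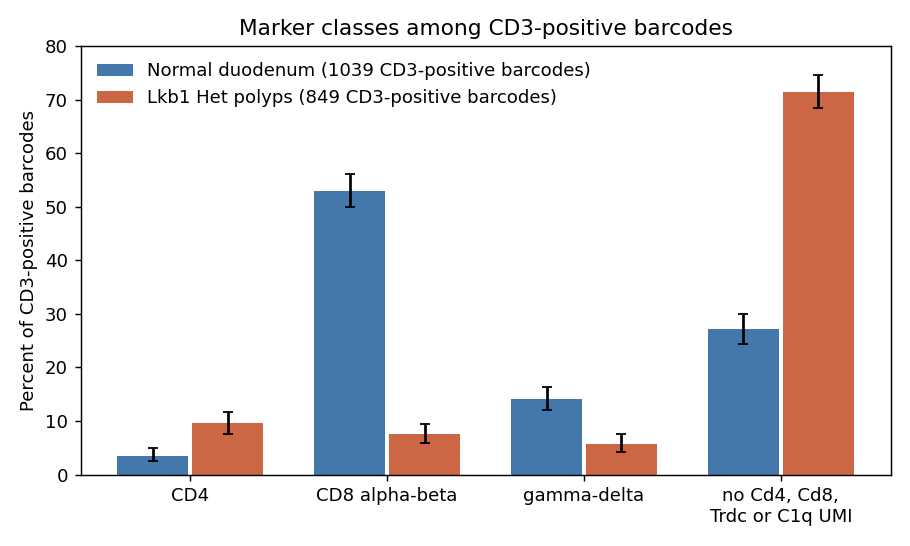
Percent of CD3-positive barcodes (y axis) in each marker class (x axis) in the normal and polyp libraries; bars are 1 library each and error bars are exact 95% binomial intervals. CD8 alpha-beta cells take 52.9% in normal duodenum and 7.54% in polyps, and CD4 cells 3.56% and 9.54%.

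The plainest feature of the polyp CD4 T cells was high S100a4 together with few granzyme transcripts. S100a4, which codes for a calcium-binding protein of motile and memory T cells (chr3:90603771-90606045, plus strand, mm10), had 224 UMIs in 50 of 81 polyp members and 5 UMIs in 3 of 37 normal members. Single polyp members held 0 to 31 UMIs with a median of 1, and no normal member held more than 2. The ratio of CPM was 36.1 (15.3 to 112), and 42.4 without the 7 doubtful barcodes. Gzma, the protease granzyme A of killer granules (chr13:113093825-113100981, minus strand, mm10), ran the other way, with 575 UMIs in 19 of 37 normal members and 1 UMI in 1 of 81 polyp members. Its level was 2864 CPM in normal and 4.02 in polyp members, 713-fold lower in polyps (127 to 2.82e+04). In the normal library 27.1% of epithelial barcodes (median 8393 UMIs) had a Gzma UMI, at 29.7 CPM, and its part in the members' level was not tested.

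Across all genes, 2542 had at least 20 UMIs over both groups of members. Of these 270 (10.6%) were higher in polyps and 317 (12.5%) lower, counted where the ratio passed 1.5-fold with an interval that left out 1. The median log2 ratio was -0.07. Leaving out the top barcode of each gene kept 250 of the 270 higher but 166 of the 317 lower calls, so many lower calls rested on 1 barcode. Without the 7 barcodes 210 of 2037 (10.3%) were higher and 258 (12.7%) lower, and 159 and 172 genes met the rule both ways. In the paragraphs below, higher and lower mean that a gene met this rule, and ratios are of CPM, polyp over normal.

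**Figure D2:**
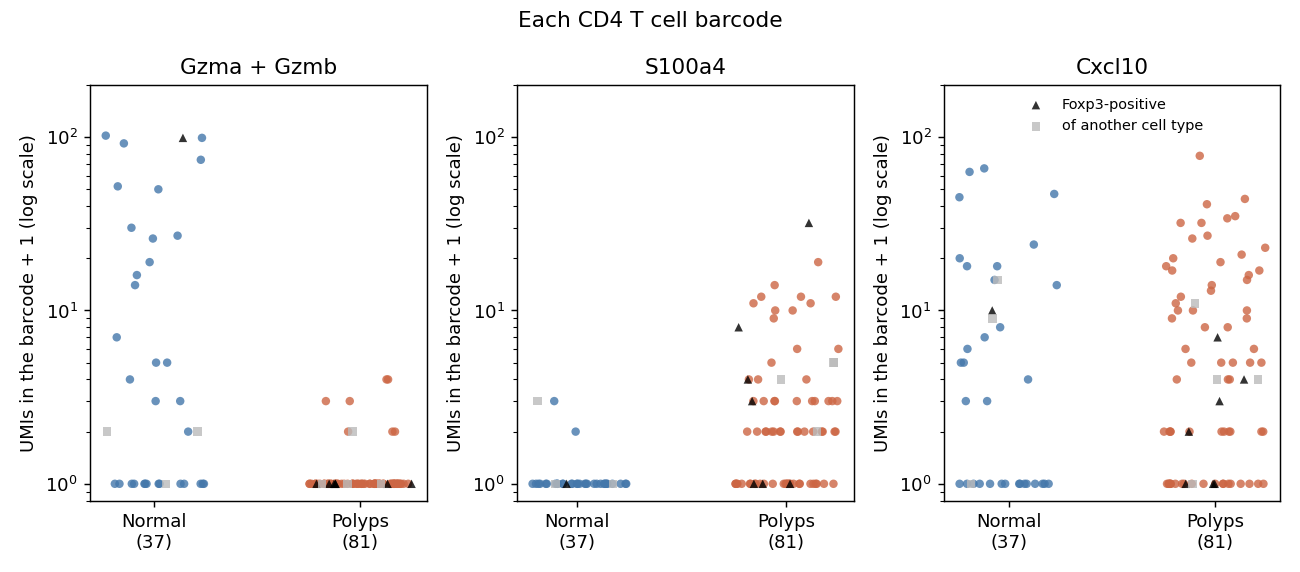
UMIs plus 1 (log scale) of Gzma and Gzmb together, S100a4 and Cxcl10 in each CD4 T cell barcode of the normal (37) and polyp (81) libraries. Triangles mark Foxp3-positive members and grey squares the 7 barcodes that carry another cell type's transcripts; granzyme UMIs reach 101 in normal and 3 in polyp members.

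Killer and epithelial-residence genes were lower as groups. All 8 measured genes of the cytotoxic list were lower in polyps, as were 6 of 7 of the intraepithelial list, which shares Gzma and Gzmb with it. Gzmb had 136 UMIs in 16 normal members and 13 UMIs in 7 polyp members (13.0-fold lower, 7.34 to 25). Nkg7, a granule membrane gene, had 110 and 24 UMIs (5.68-fold lower), and Ccl5, a chemokine of effector T cells, 1311 and 576 (2.82-fold lower). Itgae, the integrin chain that holds T cells to epithelial E-cadherin, was found in 14 normal and 5 polyp members (6.20-fold lower). Ccr9, the receptor for homing to the small intestine, was found in 15 and 2 members, and Cd7 in 11 and 1. Cd160 had 33 UMIs, 23 of them in 1 normal barcode, against 1. Transcripts of the gamma receptor constant genes Tcrg-C1 (40 and 1 UMIs) and Tcrg-C2 (37 and 6) were lower too, although Trdc was at 0 by the rule; reads of these near-identical copies may have been split between them. Of the 77 UMIs of both genes in normal members, 43 lay in 1 barcode, and the other 34 in 16; without the top barcode of each gene the log2 ratios were -4.51 for Tcrg-C1 and -3.34 for Tcrg-C2. Without the 7 barcodes all 8 cytotoxic and all 7 intraepithelial genes were lower.

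The normal members were not uniform in this respect. Without doubtful barcodes, 13 of 34 normal members held 10 or more UMIs of Gzma and Gzmb and 21 held fewer, with 3 barcodes between 5 and 15, whereas no polyp member exceeded 3. This split uses measured values and is given as a description. In the 13 granzyme-rich members Ccl5 reached 19134 CPM and Itgae was found in 10, Ctla4 in 6 and Cd28 in 4. In the 21 others Ccl5 reached 3603 CPM and Itgae was found in 4, Ctla4 in 16 and Cd28 in 15. Cd40lg, the helper ligand for CD40 on B cells, was found in 5 of 13 and 7 of 21. Trbc2, which CD8 alpha-beta cells carry as well, was found in 13 of 13 and 19 of 21. Among intraepithelial genes, Tcrg-C2 was found in 8 of 13 and 6 of 21, Tcrg-C1 in 4 of each, and Cd7 in 6 and 5. The granzyme-rich barcodes thus held helper, alpha-beta receptor and intraepithelial transcripts, and what kind of T cell they were was not tested. Removing all barcodes with a UMI of Ncr1, Klrb1c, Tcrg-C1, Tcrg-C2, Cd160 or Fcer1g left 18 normal and 75 polyp members. Among these Gzma stood at 165 UMIs against 1, while the log2 ratio of Ccl5 shrank to -0.15 and that of Cd69 to -0.58.

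Costimulatory and checkpoint receptors gave a mixed picture: 4 of 10 measured were higher and 0 lower, and 3 and 1 without the 7 barcodes. Tnfrsf4, which codes for OX40 on activated T cells, had 92 UMIs in 38 polyp members and 20 in 9 normal members (3.71-fold, 2.27 to 6.35). Icos had 81 UMIs in 40 and 30 in 15 (2.18-fold, 1.42 to 3.43; 1.56-fold without the 7). Tnfrsf9, which codes for 4-1BB, had 33 UMIs against 1, of which 16 lay in 1 polyp barcode. Cd28 did not meet the rule (94 UMIs against 52, 1.46-fold, 1.03 to 2.09). Ctla4 had 64 UMIs against 74 (0.697-fold, 0.491 to 0.988), and without the 7 barcodes it met the rule as lower in polyps (0.518-fold, 0.364 to 0.736). At equal depth, with each barcode thinned to 1000 UMIs, Ctla4 was found in 36.1% of 36 normal and 24.7% of 81 polyp members, Icos in 25% and 21.0%, and Cd28 in 27.8% and 30.9%. Those 3 pairs have overlapping intervals, so no difference in detection of these label markers could be seen at this depth.

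**Figure D3:**
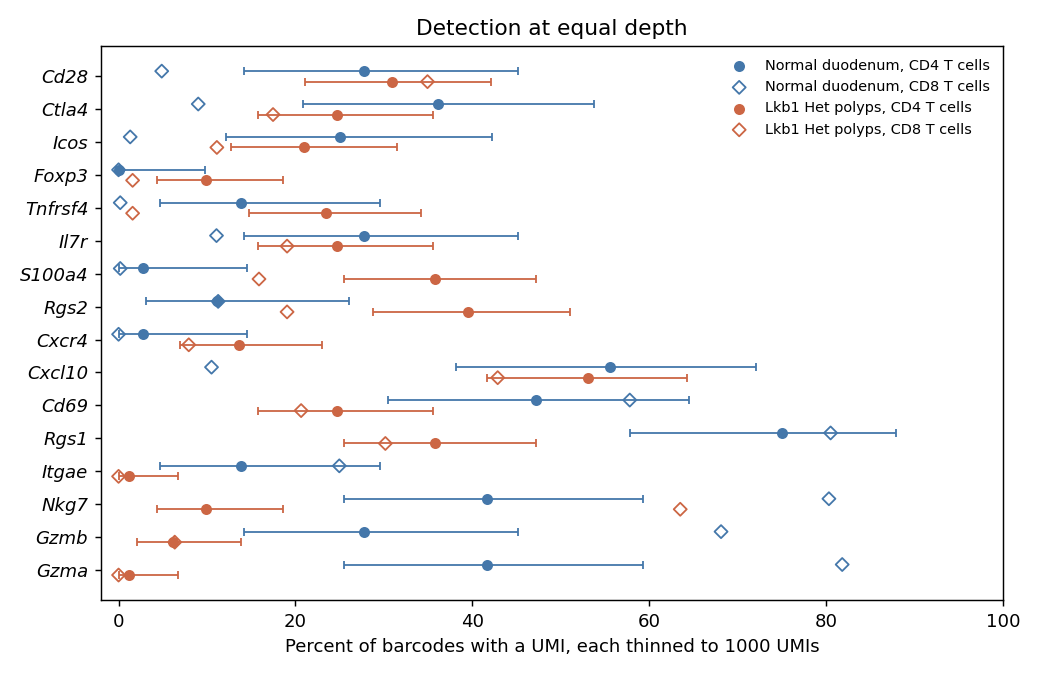
Percent of barcodes with a UMI of each gene (x axis) after thinning each barcode to 1000 UMIs, for CD4 T cells (circles with exact 95% binomial intervals) and CD8 alpha-beta T cells (open diamonds) of both libraries. S100a4 is found in 2.78% of normal and 35.8% of polyp CD4 T cells, and Gzma in 41.7% and 1.23%.

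Residence and migration genes divided into 2 directions, with 4 of 12 measured residency genes higher and 4 lower. Cd44, the hyaluronan receptor of antigen-experienced cells, was higher (55 and 11 UMIs, 4.03-fold), as were Bhlhe40 (192 and 57, 2.72-fold), a transcription factor of resident and cytokine-producing T cells, and Rgs2 (138 and 16, 6.95-fold, 4.13 to 12.5). Rgs2 and Rgs1 both curb signalling by G protein-coupled receptors, yet Rgs1 was lower (207 and 309, 1.85-fold). Cd69, which keeps T cells in tissue, was also lower (70 and 136, 2.41-fold). The Rgs1 call was not kept in the 18 and 75 members left after the removal of innate and cytotoxic barcodes (log2 ratio 0.064). Cxcr4, the receptor for CXCL12, was found in 25 polyp and 2 normal members (42 and 2 UMIs, 16.9-fold, 4.4 to 144). Of the genes of naive and recirculating cells 3 of 5 measured were higher and 1 lower. Tcf7 (20 and 5 UMIs), Satb1 (18 and 3) and Il7r (80 and 30) were higher. Ccr7 had 10 UMIs in polyps and 0 in normal members, under the 20 UMI minimum, so it was not among the measured genes. Klf2 did not meet the rule (159 and 154 UMIs).

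In the cytoskeletal and S100 list, which includes S100a4, 10 of 15 measured genes were higher and 3 lower, with a median log2 ratio of 0.88. The median did not keep its sign under every choice of members: it was -0.28 in members with 2 or more Cd4 UMIs and -0.16 without barcodes that had a UMI of Epcam, Cd79a, Ms4a1, Jchain, Lyz2 or Csf1r (mixed barcodes). S100a6 had 487 UMIs in polyp and 122 in normal members (3.22-fold, 2.63 to 3.96), S100a10 had 362 and 137 (2.13-fold), and Crip1, a LIM domain gene, 595 and 260 (1.85-fold). In members with 2 or more Cd4 UMIs S100a6 and Crip1 turned to log2 ratios of -0.95 and -1.05. That setting left 6 normal and 13 polyp members, and the deepest of the normal ones was a doubtful barcode of 14904 UMIs. Among all members but the 7 doubtful barcodes, S100a6 and Crip1 stood at 2.26 and 1.32. Marcksl1, an actin regulator, was found in 19 polyp and 4 normal members (7.06-fold). Vim was lower with all members (114 and 151 UMIs) but 1.40-fold higher, without meeting the rule, once the 7 barcodes were left out. Without the 7 barcodes 7 of 14 genes of the list were higher and 1 lower.

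**Figure D4:**
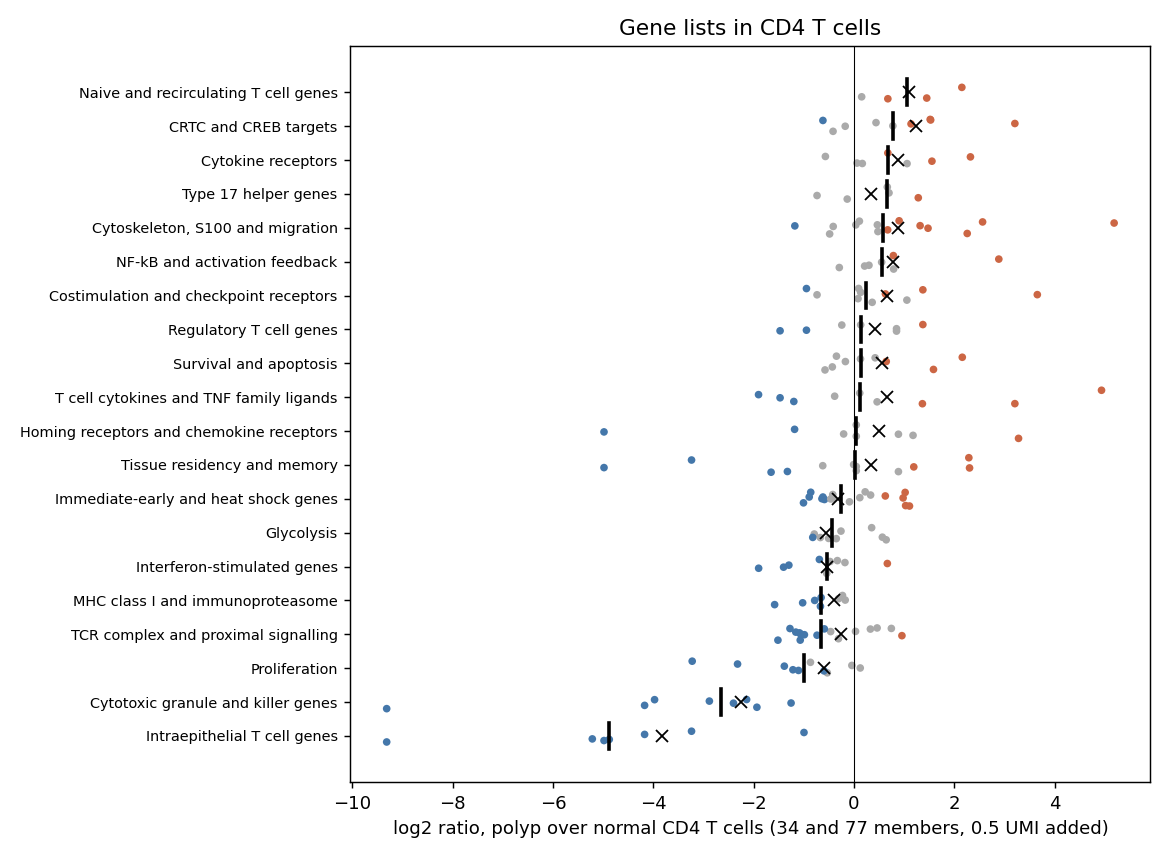
Log2 ratio of polyp over normal CD4 T cells for each measured gene (points) of 20 gene lists, without the 7 doubtful barcodes; red points were higher and blue points lower by the rule. Black bars are list medians and crosses the medians with all 118 members; the cytotoxic and intraepithelial medians are the lowest, at -2.64 and -4.88.

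Ligands and receptors of cytokines shifted as well. Of 9 measured cytokine and TNF family ligands 4 were higher and 1 lower with all members, and 3 each without the 7 barcodes. Tnfsf11, which codes for RANKL, had 25 UMIs in 14 polyp members and 0 in normal members (6.72-fold higher against a floor of 3 UMIs). Tnfsf8, the CD30 ligand, had 66 and 15 UMIs (3.55-fold). Ifng, the type 1 cytokine, was lower (22 and 52 UMIs, 2.93-fold) and was found in 12 members of each library. Of the 52 normal UMIs, 37 lay in the 13 granzyme-rich members. Without innate or cytotoxic barcodes the Ifng log2 ratio was -0.016 (21 and 11 UMIs). Il10 had 16 UMIs in polyps and 22 in normal members, 18 of the latter in 1 barcode. Among receptors 4 of 8 measured were higher and 0 lower. Ifngr1, a chain of the interferon-gamma receptor, had 146 and 31 UMIs (3.80-fold, 2.56 to 5.79), and Il2rb, a chain of the IL-2 and IL-15 receptors, 38 and 6 (5.11-fold). Il2ra, the IL-2 receptor chain of regulatory and activated cells, was seen in 10 polyp members and in 0 of 37 normal members, with 13 UMIs in all.

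Helper lineage factors were too sparse to sort the cells. Gata3 was seen in 8 normal and 16 polyp members, Tbx21 in 2 and 5, and Bcl6 in 4 and 3. Il4, Il5 and Il13 together were seen in 0 normal members and 1 polyp member. Rora, a nuclear receptor of type 17 and other tissue T cells, was higher in polyps (117 and 29 UMIs, 3.25-fold); members with Il17a or Il22 had been removed by the rule, so the type 17 axis was cut short by the choice of cells.

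LKB1, the product of Stk11, is the kinase whose floxed allele the polyp mice carried, and it restrains the CREB coactivators CRTC through salt-inducible kinases. Stk11 itself had 13 UMIs in polyp and 7 in normal members (1.5-fold, 0.555 to 4.43), too few to show a difference, and the 3' tags do not tell the alleles apart. Of 9 measured genes in a list of CREB and CRTC targets 5 were higher and 1 lower, with a median log2 ratio of 1.24, and 4 and 1 without the 7 barcodes, with a median of 0.78. The median turned negative in members with 2 or more Cd4 UMIs (-3.64), without mixed barcodes (-0.36) and at 1000 UMIs a barcode (-0.27). Areg, the epidermal growth factor family ligand made by tissue-repair T cells, had 55 UMIs in 19 polyp members and 2 in 2 normal members (22.2-fold, 5.85 to 188), and 38 against 2 without the 7 (11.4-fold). These UMIs are also counted in the natural killer and innate lymphoid list above. Crem (41 and 10 UMIs), Sik1 (22 and 5) and Fosl2 (55 and 12) were higher with and without the 7 barcodes, and Nr4a3 (39 and 13) with all members but not without them. Dusp1 was lower (109 and 150 UMIs).

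The stretches of 250 bases before the starts of 2 of these genes are shown because both genes were higher and they differ in the CREB sequence. RefSeq gives them on GRCm38.p6 at chr5:91139349-91139598 for Areg and chr5:32136222-32136471 for Fosl2, both on the plus strand. Capitals mark TGACG on either strand, including the full palindrome TGACGTCA.
Areg: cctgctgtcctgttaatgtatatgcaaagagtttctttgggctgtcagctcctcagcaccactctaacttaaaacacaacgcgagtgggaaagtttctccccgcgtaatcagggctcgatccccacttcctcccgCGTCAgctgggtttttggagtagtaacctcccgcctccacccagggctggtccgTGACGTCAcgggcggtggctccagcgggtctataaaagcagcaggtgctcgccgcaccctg
Fosl2: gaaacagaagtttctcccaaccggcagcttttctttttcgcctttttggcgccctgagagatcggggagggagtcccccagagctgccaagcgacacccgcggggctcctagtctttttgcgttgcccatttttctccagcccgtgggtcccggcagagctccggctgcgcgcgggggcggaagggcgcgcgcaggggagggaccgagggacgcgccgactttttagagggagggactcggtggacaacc
Areg holds TGACGTCA 1 time, a sequence present in 1.55% of 32851 such stretches, and TGACG on either strand 3 times with the palindrome counted on both strands; 17.8% of stretches hold TGACG. Fosl2 holds neither. Dusp1, which was lower in polyps, also holds TGACGTCA 1 time. A match describes the letters alone.

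Stress and signalling genes were mixed. Of 8 measured genes for NF-kB and its feedback 5 were higher and 0 lower, and 2 and 0 without the 7 barcodes; Nfkb1 had 58 and 8 UMIs (5.85-fold, 2.78 to 14.2). Fos (210 and 329 UMIs) and Jun (168 and 360) were lower. Without the 7 barcodes Fos had 174 and 157 UMIs (log2 ratio -0.59) and Jun 131 and 146 (-0.89). The heat shock genes Hspa1b (738 and 300), Hspa1a (638 and 276) and Hsp90aa1 (729 and 296) were higher. Hspa1a and Hspa1b are near-identical copies whose UMIs may be split between them. Both kinds of gene are known to respond to tissue digestion as well as to activation. Of 16 genes of the receptor complex and its proximal signalling 2 were higher and 3 lower, and 1 and 9 without the 7 barcodes; the median log2 ratio was -0.25 and turned to 0.55 without innate and cytotoxic barcodes. Among them Cd2 was higher (77 and 21 UMIs, 2.96-fold) and Lck (26 and 47), Lat (49 and 71) and Trbc2 (170 and 217) lower. Proliferation genes were lower in 5 of 10 measured and higher in 0, and 6 and 0 without the 7 barcodes, with a median log2 ratio of -0.60. The count rested on few barcodes: 4 of 37 normal members held all 69 UMIs of Birc5, Top2a, Mki67 and Cdk1 and 824 of the list's 1009 UMIs, against 13 of 81 polyp members with 29 UMIs of these 4 genes. The list median turned to 1.58 in members with 2 or more Cd4 UMIs, 1.08 at 1000 UMIs a barcode and 0.11 without innate and cytotoxic barcodes. MHC class I and immunoproteasome genes were lower in 2 of 8, and in 5 of 8 without the 7 barcodes, among them Psmb8 (69 and 154 UMIs, 2.77-fold). Of the 12 genes ranked first as higher, Samsn1 (63 and 6 UMIs), Ramp3 (60 and 6), Dgat1 (46 and 5), Cpm (37 and 4) and Tent5a (56 and 8) belonged to no list.

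Interferon-driven Cxcl10, a chemokine for CXCR3-bearing T cells, was abundant in both groups. It had 678 UMIs in 57 of 81 polyp members and 384 in 21 of 37 normal members, up to 77 and 65 UMIs in a barcode, and did not meet the rule (1.42-fold, 1.25 to 1.62). Isg15 had 317 and 265 UMIs and did not meet it either (0.965-fold), whereas Ifit1 was higher (208 and 75, 2.24-fold) and Bst2 lower (17 and 60, 4.38-fold). Epithelial barcodes held Cxcl10 at 44.9 CPM in the normal and 44.3 in the polyp library, against 1913 and 2723 in CD4 T cells.

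Foxp3-positive cells were 1 of 37 normal members (2.70%, 0.0684 to 14.2%) and 10 of 81 polyp members (12.3%, 6.08 to 21.5%). Without the 7 barcodes they were 1 of 34 and 7 of 77 (9.09%, 3.73 to 17.8%). At 1000 UMIs they were 0 of 36, with an interval that reaches 9.74%, and 8 of 81 (9.88%). The intervals overlap, so a difference in the regulatory share could not be shown at this number of cells. Among epithelial barcodes, with median depths of 8393 and 6698 UMIs, 0.0983% in the normal and 0.0932% in the polyp library had a Foxp3 UMI. The single normal Foxp3-positive barcode carried 3 Foxp3 UMIs, 5 of Ctla4 and 3 of Ikzf2 but also 98 granzyme UMIs. In the polyp library Ctla4 was found in 4 of 10 Foxp3-positive members, and 30 of the 34 polyp members with Ctla4 had no Foxp3 UMI.

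Within the polyp library the 10 Foxp3-positive members were set beside the 71 others, as cells of 1 library and not as replicates. Of 1428 measured genes 69 (4.83%) were higher and 252 (17.6%) lower in Foxp3-positive members, with a median log2 ratio of -0.43; centred on the median gene, 124 were higher and 108 lower. Leaving out the barcodes of other cell types gave 89 (6.96%) higher and 84 (6.57%) lower of 1278, with a median of 0.03, in 7 against 70 members. Both ways, 36 and 80 genes met the rule. These 7 held 20119 UMIs, 6483 of them in the deepest barcode. Their barcodes of 1992, 1609 and 1322 UMIs had no UMI of Trac, Trbc1 or Trbc2. Those of 4107, 1992 and 1322 UMIs had a single CD3 UMI, so the T cell identity of this group rests on few molecules. Mzb1, a plasma cell gene, led the first ranking with 45 UMIs against 2, yet it came from 2 barcodes and had 0 UMIs once they were left out. Ikzf2, which codes for Helios and marks many thymus-derived regulatory cells, had, in these 7 and 70 members, 12 UMIs in 5 of 7 and 31 in 16 of 70 (3.71-fold, 1.74 to 7.44). Capg (8 and 26 UMIs, 2.95-fold), an actin-capping gene of tissue regulatory cells, Klf2 (30 and 102, 2.82-fold) and Sat1 (26 and 38, 6.56-fold) were higher too. Among the called genes Hist1h2bc and Stmn1 rested on 1 barcode, with 17 of 23 and 18 of 20 UMIs in it. With all 10 Foxp3-positive members, Hist1h4i, Cxcl2 and Hsp90b1 also lost their call without the top barcode. Of all calls there, 22 of the 69 higher and 227 of the 252 lower were kept. In the 7 and 70 members Cxcl10 (12 and 650 UMIs, 0.177-fold) and Ccl5 (17 and 548, 0.298-fold) were lower. Icos (2 and 76, 0.252-fold) and Cd28 (3 and 88, 0.327-fold) were lower too. Kdm6b, a histone demethylase gene, had 0 UMIs against 62 (2.15-fold lower against a floor of 3 UMIs). Ctla4 (7 and 56 UMIs, 1.20-fold, 0.461 to 2.64), Tnfrsf4 (6 and 82), Tnfrsf18 (3 and 23) and Izumo1r (6 and 19) did not meet the rule.

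Most Foxp3-positive T cells of the polyps had no Cd4 UMI and so lay outside the members. Of 66 polyp barcodes with Foxp3, 52 were CD3-positive and 10 were members, and 40 of the 607 unassigned CD3-positive barcodes (6.59%) carried Foxp3. Without barcodes of another cell type, 39 such Foxp3-positive barcodes held Ctla4 at 944 CPM (766 to 1150), against 257 (228 to 290) in 491 Foxp3-negative unassigned barcodes. Ikzf2 stood at 616 and 182, Tnfrsf4 at 405 and 186, Tnfrsf18, which codes for GITR, at 260 and 78.9, and Capg at 395 and 165. Icos stood at 433 and 283, unlike the members, where it was lower beside Foxp3. Klf2 stood at 453 and 681, also the other way round from the members. Cxcl10, lower beside Foxp3 in the members, stood at 1849 (1597 to 2130) and 1912 (1830 to 1997), with overlapping intervals, and Ccl5 at 2003 (1740 to 2295) and 2512 (2418 to 2609). The median depths were 2053 and 1912 UMIs. Unlike the members, unassigned barcodes were not screened for Il17a or Il22. Before barcodes of another cell type were left out, Il17a was found in 53 of 567 Foxp3-negative and 1 of 40 Foxp3-positive ones. The 2 pairs thus differ in more than the Cd4 UMI, and the part of this in the contrasts was not tested.

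**Figure D5:**
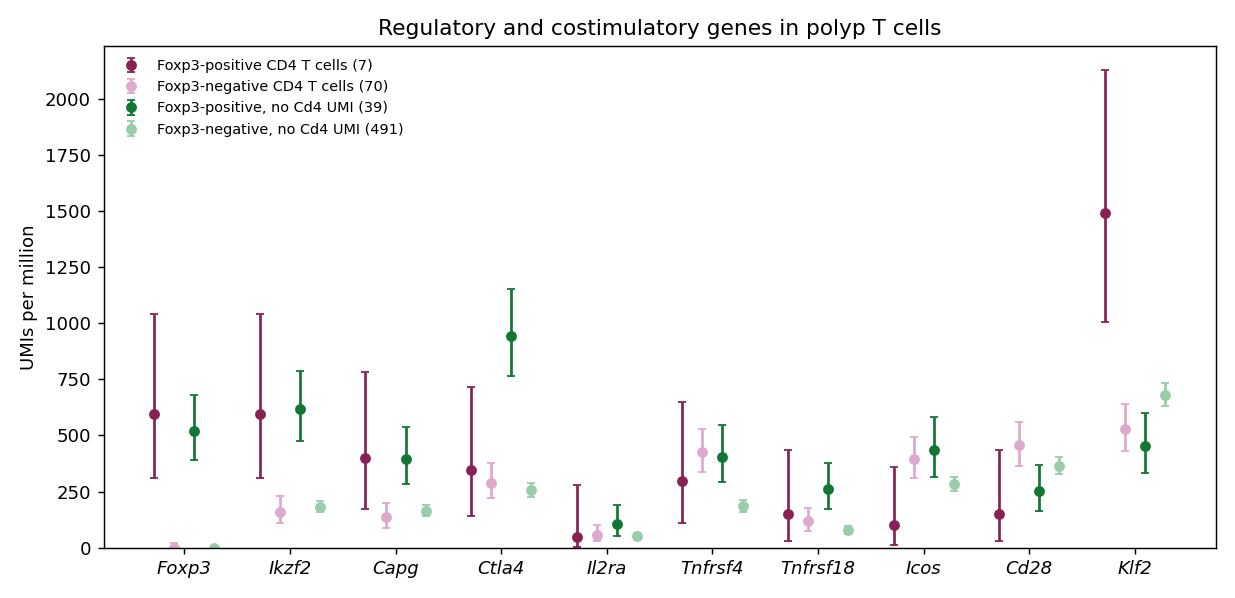
CPM (y axis) of regulatory and costimulatory genes (x axis) in polyp T cells with and without a Foxp3 UMI, split by whether a Cd4 UMI was captured; points are sums over the barcodes given in the legend and bars exact 95% Poisson intervals. Barcodes without a Cd4 UMI also lack Cd8a, Cd8b1, Trdc and C1q UMIs and, unlike the members, were not screened for Il17a or Il22. Ikzf2 is higher with Foxp3 in both pairs, and Ctla4 in the barcodes without a Cd4 UMI.

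Some of these genes were read in the other T cell classes, whose barcodes come from the same 2 libraries. S100a4 stood at 0.943 CPM in normal and 307 in polyp CD8 alpha-beta cells, and at 13.2 and 1064 in gamma-delta cells, against 24.9 and 900 in CD4 cells; polyp epithelial barcodes held 3.88. Gzma had 31569 UMIs in 550 normal CD8 cells and 0 in 64 polyp CD8 cells, and 19967 in normal and 0 in polyp gamma-delta cells. Cd28 stood at 61.8 and 302 CPM in CD8 cells, and Icos at 16.5 and 90.7. High S100a4 and low Gzma in the polyp library were therefore seen in all 3 classes. In CD8 cells, polyp over normal, 760 of 7279 measured genes were higher and 659 lower. Higher and lower genes numbered 5 and 1 of 13 for CREB, 6 and 2 of 12 for costimulation and 6 and 1 of 11 for cytokine receptors. They numbered 8 and 4 of 14 for the cytoskeletal list, so shifts of these lists were not particular to CD4 cells. Proliferation genes differed, with 4 of 15 higher and 0 lower in CD8 cells.

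Within a library the CD4 cells differed from the CD8 cells in genes other than those used to choose them. This contrast is given as a description, because the classes were cut from the same cells by Cd4 and Cd8 UMIs. In the normal library 526 of 7217 measured genes (7.29%) were higher in CD4 cells and 317 (4.39%) lower, with a median log2 ratio of 0.13; in polyps 207 of 2626 (7.88%) were higher and 172 (6.55%) lower. Without barcodes of another cell type these shares were 5.82% and 2.25% in the normal and 6.77% and 3.92% in the polyp library. With the top barcode of each gene left out, 142 of the 526 higher and 273 of the 317 lower calls were kept in the normal library. In polyps 175 of the 207 and 94 of the 172 were kept, so many calls, above all the higher ones in normal tissue, rested on 1 barcode. Cd40lg (27 UMIs in 37 CD4 cells and 4 in 550 CD8 cells), Maf (354 and 13.2 CPM), Tnfrsf4 (99.6 and 4.71) and Icos (149 and 16.5) were higher in normal CD4 cells. Cxcl10 was 6.59-fold higher in CD4 than in CD8 cells of the normal library and 2.89-fold higher in polyps. Regulatory genes were higher in 5 of 7 and 6 of 8 measured, and cytotoxic genes lower in 11 of 14 and 8 of 11, with Ccl5 at 6530 CPM in normal CD4 cells and 27808 in normal CD8 cells. Proliferation genes were higher in CD4 cells in 12 of 15 measured in the normal library, where 4 of the 37 held 824 of the 1009 UMIs of this list, and in 1 of 7 in polyps, where 1 was lower.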

How the data were processed

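Single-cell 3' v3 libraries (10x Genomics) of duodenal tissue pieces digested with collagenase were measured, 1 per group. The authors deposited UMI counts per gene and barcode (32285 genes). The submitters' processing notes name Cell Ranger 3.0.0 and mm10, while the matrix headers, per the file headers, name cellranger 5.0.0. The deposited matrices held 9950 and 14327 barcodes. Barcodes with at least 500 UMIs, 250 genes and at most 25% mitochondrial UMIs were kept. Counts were summed over members and divided by their total (CPM); ratios carry exact conditional binomial intervals, levels exact Poisson intervals and shares Clopper-Pearson intervals, all at 95% and for counting error alone. With 1 library per group no test was made. A fold against 0 UMIs was computed from a floor of 3 UMIs summed over the group and is not the end of an interval. Log2 ratios used 0.5 UMI added to each side. Thinning drew 1000 UMIs per barcode (seed 1), which left out 1 normal member.

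Named genes had met the call rule with at least 30 UMIs and a UMI in 10% of the cells of the higher side, were no lower there than in CD3-negative barcodes, and were ranked by the interval's end nearest 1; 12 per direction were taken, besides the label markers and list genes. The members and the 24 gene lists and 15 lists of other cells were chosen with earlier results of these data known. Epithelial barcodes and other classes were set by the same kind of marker rule. Doublets were scored with scrublet in scanpy 1.11.5; its automatic threshold marked 0 barcodes in both libraries and so had not worked. As an alternative, as an alternative, the top-scoring 85 normal and 573 polyp barcodes (0 and 5 members) were removed to match the expected share of doublets. Python 3.11.15, numpy 2.4.6, scipy 1.17.1 and matplotlib 3.10.9 were used, and the counting rule was tested on simulated data. Gene positions come from GENCODE on GRCm38 and upstream sequences from RefSeq on GRCm38.p6.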

Additional observations from a re-analysis of the deposited data

Results flagged for a closer look

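Foxp3 transcripts were found in T cells that the marker rule leaves out. In the polyp library 40 of 607 CD3-positive barcodes with no Cd4, Cd8, Trdc or C1q UMI carried Foxp3 (6.59%, 4.75 to 8.87%). The normal library, set beside it, had 2 of 282 (0.709%, 0.0860 to 2.54%). The 2 sets differed in make-up, since Trac, Trbc1 or Trbc2 had a UMI in 73.8% of the polyp and 49.6% of the normal barcodes. A few barcodes with the markers of CD4 T cells lay outside the filters on depth, genes and mitochondrial share, 6 of 5867 in the polyp library (0.102%, 0.0375 to 0.222%) and 1 of 6698 in the normal library (0.0149%). Neither difference has replicate libraries behind it.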

How the results depend on the processing

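No paired analysis was possible because each group is 1 library, and for the same reason no replicate could be left out. Of 1207 values of 101 gene ratios between polyp and normal members, 1031 stayed within their counting interval, 148 moved and 28 changed sign; of 252 values of 24 Foxp3 gene ratios 223 stayed, 27 moved and 2 changed sign; of 319 values of 24 list medians 278 stayed and 41 moved, and 41 values of 17 lists changed sign. A further 207 and 36 gene ratios fell under the 20 UMI minimum and have no value, and the Foxp3 comparison has none at 2 Cd4 UMIs, where no polyp member was Foxp3-positive. Each cause was not tested, except that stricter choices leave fewer cells or genes. The alternatives that leave out the top barcode of each gene, barcodes of another cell type, or members without an alpha-beta receptor UMI were chosen after seeing the data. Mixed barcodes are those with a UMI of Epcam, Cd79a, Ms4a1, Jchain, Lyz2 or Csf1r.

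The share of CD4 T cells among kept barcodes was 2.16% in normal and 1.49% in polyp tissue under a strict filter (1000 UMIs, 500 genes, 10% mitochondrial), 0.185% and 0.154% with 2 Cd4 UMIs, 2.02% and 1.77% without mixed barcodes and 0.479% and 0.506% at 1000 UMIs, and 0.753% in normal tissue without innate or cytotoxic barcodes. Among CD3-positive barcodes it was 0.577% and 1.53% with 2 Cd4 UMIs and 1.22% and 5.65% at 1000 UMIs, 6.06% in normal tissue without innate or cytotoxic barcodes, and 11.97% in polyps with 2 CD3 UMIs. The Foxp3-positive share was 0% in both libraries with 2 Cd4 UMIs, and 0% in normal members without mixed barcodes or at 1000 UMIs.

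Genes higher and lower in polyp members numbered 572 and 596 by the mean over cells, 152 and 165 with 50 UMIs, 126 and 92 with 2 Cd4 UMIs, 102 and 138 without mixed barcodes and 22 and 30 at 1000 UMIs; 592 were lower with a minimum of 5 UMIs and 178 with the top barcode left out. Lists with more higher than lower members, 13 in all, numbered 6 with 2 Cd4 UMIs, 7 without mixed barcodes, 1 at 1000 UMIs and 7 without members lacking a receptor UMI. Genes higher and lower in Foxp3-positive members numbered 240 and 554 by the mean over cells, 124 and 108 centred on the median gene, 32 and 37 without mixed barcodes and 5 and 10 at 1000 UMIs; 35 were higher with 50 UMIs, 133 with 5 UMIs and 22 with the top barcode left out, and 84 were lower without barcodes of another cell type. List genes higher and lower in CD4 than CD8 cells numbered 12 and 10 in normal and 7 and 5 in polyp tissue at 1000 UMIs; without mixed barcodes 21 were lower in normal and 18 higher in polyp tissue, 34 were higher in polyps without innate or cytotoxic barcodes, and 22 were lower in polyps with 2 Cd4 UMIs.

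Log2 ratios of polyp over normal that changed sign are as follows. With 2 Cd4 UMIs they were -0.53 for Traf1, -0.95 for S100a6, 1.37 for Coro1a, 1.0 for Hmgb2, -0.88 for Tnfaip3, -0.63 for Hsp90aa1, -1.05 for Crip1, -1.72 for Hspa1b, -2.23 for Hspa1a and -1.22 for Ahnak. At 1000 UMIs they were -0.21 for S100a11, -0.093 for Hsph1, 0.77 for Hmgb2, -0.030 for Tnfaip3, -0.73 for Il7r, -0.19 for Hspa1a and -1.56 for Ifit1. Without mixed barcodes they were -0.16 for S100a11, -0.28 for Anxa2 and -0.68 for Rel. Without innate or cytotoxic barcodes they were 0.064 for Rgs1, 0.26 for Coro1a, 0.27 for Hmgb2 and 1.05 for Ccl4. Leaving out the top barcode gave 0.65 for Vim and 0.76 for Rrm2, removing other cell types gave 0.48 for Vim, and removing the highest doublet scores gave -0.71 for Anxa1. In Foxp3-positive members Stmn1 turned to -0.49 without its top barcode and Hsp90b1 to -0.25 without barcodes of another cell type. Ratios and list medians with 2 Cd4 UMIs rest on 6 normal members, among them a doubtful barcode of 14904 UMIs.

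List medians that changed sign were, with 2 Cd4 UMIs, -0.61 for costimulation, -0.80 for regulatory, -0.86 for naive, -3.64 for CREB, -0.88 for NF-kB, -0.28 for cytoskeletal, 0.39 for interferon, 1.58 for proliferation and 0.24 for glycolysis genes. At 1000 UMIs they were -0.38 for naive, -0.25 for residency, -0.73 for cytokine receptor, -0.27 for CREB and 1.08 for proliferation genes. Without mixed barcodes they were -0.067 for residency, -0.011 for homing receptor, -0.56 for cytokine and ligand, -0.36 for CREB and -0.16 for cytoskeletal genes. Without innate or cytotoxic barcodes they were 0.55 for receptor signalling, 0.26 for interferon and 0.11 for proliferation genes. The regulatory median was -0.0024 without members lacking a receptor UMI, and the residency median -0.20 by the mean over cells. The CREB medians above equalled the log2 ratio of Dusp1, the NF-kB median that of Tnfaip3 and the cytokine receptor median that of Il7r. The remaining sign changes were in the medians of the helper lists (types 1 and 17 and follicular).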
